A study of Mus musculus with 23 samples.

Results

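The 10 genes described here encode the core proteins that make and use microRNAs (miRNAs). They were chosen by name, not by their values, and comprise Drosha, Dgcr8, Xpo5, Dicer1, Tarbp2, Prkra and the 4 Argonaute genes Ago1, Ago2, Ago3 and Ago4. All 10 were found among the 43068 genes listed for the nerve crush libraries and among the 22880 genes listed for the mutant libraries.

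In the canonical pathway, the RNase III enzyme Drosha and its RNA-binding partner Dgcr8 form the microprocessor, which cuts hairpins out of primary miRNA transcripts in the nucleus. Exportin-5, encoded by Xpo5, carries the hairpins to the cytoplasm, where Dicer, encoded by Dicer1, trims them to short duplexes with the help of its double-stranded RNA-binding partners Tarbp2 and Prkra. A strand of the duplex is loaded into an Argonaute protein, which it guides to matching messenger RNAs, and in the mouse only Ago2 can cut a fully matched target. In Schwann cells (SCs), the myelinating glia of peripheral nerves, the pathway is known to be needed for myelination.

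RNA of mouse sciatic nerves (SNs) was sequenced in 23 libraries of C57bl6 background. In the crush experiment, wild-type SNs taken 3 days post crush (dpc, n = 4) were set against contralateral SNs of crush-injured mice (n = 4) and SNs labelled as uncrushed surgery controls (n = 3). The animals were young adult males according to the study's methods. In the mutant experiment, SNs were taken 3 months after tamoxifen from P0-CreERT2 -/+ Dicer1 flox/flox mice (Dicer iKO, n = 3) and P0-CreERT2 -/+ Dgcr8 flox/flox mice (Dgcr8 iKO, n = 3). Their controls were P0-CreERT2 -/- mice with the same floxed alleles (n = 3 each), so the controls too carried loxP sites in both copies of the gene and had received tamoxifen as adults. The Cre recombinase acts in SCs, while each library holds whole nerve with fibroblasts, endothelial and immune cells. The study's legend states that the mutant animals, those of its expression heatmap included, were preselected on morphology. In such bulk libraries, fewer cells of a type and less RNA per cell cannot be told apart.

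Total counts per library ranged from 6617716 to 12806066 in the crush experiment and from 5594859 to 10143244 in the mutant experiment. A limit of 3 counts then corresponds to 0.234 to 0.453 CPM, the count scaled to the library total, and to 0.296 to 0.536 CPM, for counting error only, and every value of the 10 genes lay above it. The SC markers fixed for the nerve (Sox10, S100b, Mbp, Pmp22, Cdh19 and Erbb3) summed to between 20290 and 26350 CPM in the uncrushed and contralateral SNs, and none of them was at 0 in any group. The make-up of the libraries moved with the groups. At 3 dpc the SC markers summed to 1396 to 1772 CPM, and the 8 macrophage markers to 642 to 1553 CPM against 85.0 to 155.5 CPM in both kinds of control SN. Not all 6 SC markers fell: by edgeR (adjusted p of at most 0.05), 5 were lower and 1 higher against each kind. Their median log2 fold changes were -1.70 (uncrushed) and -1.97 (contralateral). In Dicer iKO 1 of the 6 was lower and 0 higher, and in Dgcr8 iKO 3 were lower and 1 higher. In the mutants, the macrophage markers summed to 3602 to 6526 CPM (Dicer iKO) and 2398 to 5690 CPM (Dgcr8 iKO) against 258.9 to 880.3 and 246.7 to 288.7 CPM in the controls, and SC markers to 13550 to 17880 and 8675 to 16520 CPM against 18170 to 28990 and 25370 to 29220 CPM. The 5 proliferation markers summed to 714.2 to 1076 CPM at 3 dpc against 16.9 to 38.5 CPM in both kinds of control SN, and to at most 13.6 CPM in mutant controls against 74.4 to 109.2 CPM (Dicer iKO) and 205.5 to 304.1 CPM (Dgcr8 iKO). The 5 fibroblast markers summed to 19230 to 20480 CPM (Dicer iKO) and 14500 to 17420 CPM (Dgcr8 iKO) against 4554 to 14760 and 6062 to 8015 CPM in the controls, and to 2784 to 3428 CPM at 3 dpc against 3711 to 5185 CPM in both kinds of control SN. The 5 endothelial markers summed to 156.7 to 172.1 and 157.8 to 218.5 CPM in the mutants against 230.4 to 249.2 and 246.0 to 279.3 CPM, and to 158.5 to 192.2 CPM at 3 dpc against 126.0 to 150.7 CPM. Skeletal muscle markers summed to at most 17.8 CPM and neutrophil markers to at most 61.8 CPM in any library. Within the neutrophil sum, single markers moved in opposite directions. Of 3 tested in Dgcr8 iKO, 2 were higher and 1 lower (adjusted p of at most 0.05), each by at least 2-fold. At 3 dpc 1 was higher and 1 lower, of 3 tested against uncrushed and 2 against contralateral SNs. How far this shift in marker levels enters the changes given below was not tested.

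Of the 10 loci on GRCm38, Drosha lies at chr15:12824815-12935291 (+), Dgcr8 at chr16:18253948-18289246 (-), Xpo5 at chr17:46202782-46243598 (+) and Dicer1 at chr12:104687742-104751952 (-). Tarbp2 lies at chr15:102518192-102523676 (+) and Prkra at chr2:76629898-76648015 (-). The other 3 Argonaute genes share 1 region and strand of chromosome 4, with Ago3 at chr4:126331704-126429556 (-), Ago1 at chr4:126435012-126468583 (-) and Ago4 at chr4:126489541-126533472 (-), while Ago2 lies at chr15:73095844-73184935 (-). Dgcr8 overlaps Trmt2a, and Ago2 overlaps Chrac1, each on the opposite strand. The kits keep strand according to the labels, but the strand setting of the counting is not given in the sources used here.

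The primer pairs that the study lists for Dicer1, Dgcr8 and Drosha are shown with their place in the transcripts. The floxed exons of Dicer1 and Dgcr8 were read from the study's scheme. No library here is of a Drosha mutant. A script matched each to the coding transcript of GENCODE M21 (GRCm38). Both Dicer1 primers lie in the floxed exons of Dicer1-201, the forward one in exon 22 of 27 (chr12:104700406-104700432) and the reverse one in exon 23 (chr12:104697109-104697130). The Dgcr8 forward primer lies in the floxed exon 3 of 14 of Dgcr8-201 (chr16:18283219-18283239) and the reverse primer in exon 4 (chr16:18280728-18280749). The Drosha pair spans exons 9 and 10 of 35 of Drosha-207 (chr15:12848082-12848100 and chr15:12851846-12851865). All 6 sites are coding sequence. In the following lines, the primers are written 5′ to 3′, with no bases marked.
Dicer1 forward: ggcttcctcctggttatgtggtaaacc
Dicer1 reverse: acccagtttgccattagccagc
Dgcr8 forward: ctgtgctcccaagaagaggcg
Dgcr8 reverse: caatggctctgtaggtggacgg
Drosha forward: gacgacgacagcacctgtt
Drosha reverse: gataaatgctgtggcggatt

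The amplicons measure 104 bases (Dicer1), 145 bases (Dgcr8) and 196 bases (Drosha). Exons 22 and 23 make up 1027 of the 9851 bases of Dicer1-201 (10.4%), and exon 3 makes up 160 of the 4320 bases of Dgcr8-201 (3.70%). The deposited counts are per transcript and do not separate exons. A transcript that lacks only the floxed exons still gives counts to its gene, so the gene counts of Dicer1 and Dgcr8 do not check the deletion.

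Dgcr8 is also a substrate of the pathway: its own mRNA carries hairpins that the microprocessor is known to cut, which lowers Dgcr8. Both annotated hairpins lie in exon 2 of Dgcr8-201, just upstream of the floxed exon 3. The miR-1306 hairpin (chr16:18284239-18284317) is in the coding part and the miR-3618 hairpin (chr16:18284550-18284637) in the 5′ untranslated part. Their mature sequences are given from RefSeq (GRCm38.p6), with the seed (bases 2 to 8) in capitals. The 4 seeds differ from each other.
mmu-miR-1306-5p: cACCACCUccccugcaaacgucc
mmu-miR-1306-3p: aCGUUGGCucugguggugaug
mmu-miR-3618-5p: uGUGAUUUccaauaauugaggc
mmu-miR-3618-3p: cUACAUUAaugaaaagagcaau

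Levels can be compared between genes only per transcript length, for which the deposited TPM values were summed per gene. In the control SNs of the mutant experiment, 9 of the 10 genes lay close together. In Dicer controls they ran from 12.7 ± 3.62 TPM (Ago3) and 13.5 ± 1.07 TPM (Ago2) through 17.2 ± 0.860 (Dicer1) and 19.2 ± 1.92 (Dgcr8) to 24.8 ± 0.977 TPM (Drosha, SD, n = 3 each). The libraries of Prkra (24.0 ± 2.37 TPM) and Drosha, neighbours at the top, overlapped, whereas Ago2 (12.3 to 14.2 TPM) and Dicer1 (16.4 to 18.1 TPM) did not. Ago4 was lowest, at 2.69 ± 0.101 TPM, and it was lowest of the 10 in all 7 groups. In the crush experiment a single transcript of 109 bases took 61.4 to 71.8% of all TPM in each library, so TPM values of all other genes were compressed there and FPKM values are given instead. In uncrushed SNs Drosha (13.4 ± 2.0 FPKM, n = 3) and Dgcr8 (10.4 ± 1.34 FPKM) stood first and second, followed by Ago1 (10.01 ± 0.917 FPKM) within its spread of Dgcr8, and Ago4 stood last (0.85 to 1.51 FPKM). At 3 dpc Dgcr8 (17.2 ± 1.37 FPKM, n = 4) stood above Drosha (13.6 ± 1.04 FPKM). These sums include non-coding transcripts, and over coding transcripts the order of the pair was the reverse. Coding Dgcr8 (4320 bases) had 8.37 ± 3.04 CPM in uncrushed and 16.2 ± 2.93 CPM in crushed SNs. Coding Drosha (4471 and 4570 bases) had 56.5 ± 1.42 and 49.7 ± 4.83 CPM. The 2 experiments were made with different library kits according to the labels, and levels are not compared across them.

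To ask how nerve injury moved the pathway, SNs at 3 dpc were first compared with uncrushed SNs. Of the 10 genes, 3 were called higher by edgeR's quasi-likelihood test (adjusted p of at most 0.05, Benjamini-Hochberg over all genes tested) and 0 lower. Of all 17433 genes tested, 33.8% were called higher and 33.4% lower, so a call in this comparison was common. None of the 10 changed by 2-fold or more, which 36.5% of all genes did with a call. The median log2 fold change was 0.19 over the 10 genes and -0.03 over all genes.

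Dgcr8, the RNA-binding partner in the microprocessor, showed the strongest rise of the 10 genes after crush. It measured 23.9, 26.5 and 28.5 CPM in uncrushed SNs, 25.9, 23.5, 30.5 and 26.8 CPM in contralateral SNs, and 39.6, 40.8, 41.9 and 33.8 CPM at 3 dpc. All 4 crushed SNs lay above all 7 control SNs. The log2 fold change was 0.68 (standard error (SE) 0.10, adjusted p = 7.2e-05) against uncrushed SNs, a 1.60-fold rise. Trmt2a, on the opposite strand of the Dgcr8 locus, had a log2 fold change of 0.11 (SE 0.12) in the same comparison.

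**Figure D1:**
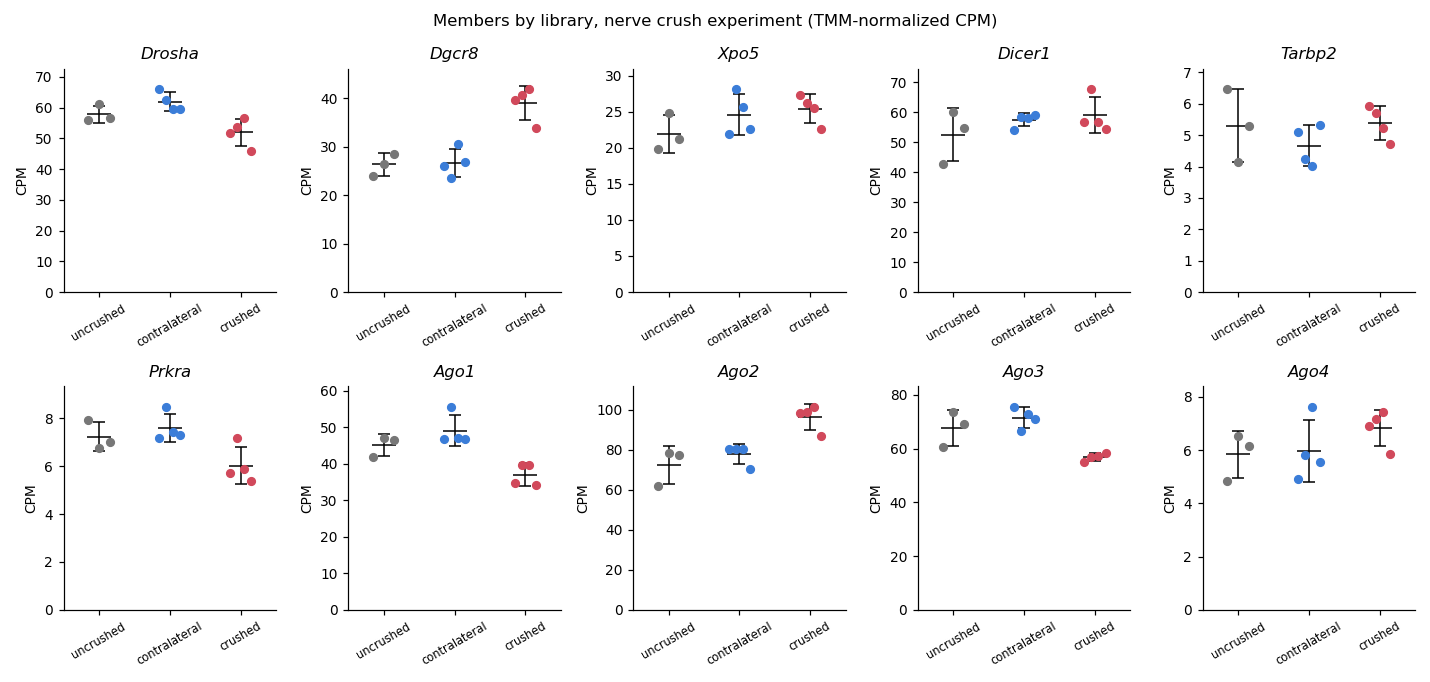
CPM normalized by TMM over the 11 crush libraries (vertical axes, each starting at 0) of the 10 genes in uncrushed (n = 3), contralateral (n = 4) and crushed SNs (n = 4). Each dot is a library, the wide bar is the group mean and the whiskers are 1 SD. Crushed SNs lie above all control SNs for Dgcr8 (33.8 to 41.9 CPM) and Ago2 (87.1 to 101.5 CPM), and below them for Ago1 and Ago3.

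Ago2, the Argonaute able to cut its targets, also rose. Uncrushed SNs had 61.7, 78.6 and 77.6 CPM and crushed SNs 98.5, 99.1, 101.5 and 87.1 CPM, with no overlap (log2 fold change 0.52, SE 0.10, adjusted p = 0.00073, 1.43-fold). Chrac1, which overlaps Ago2 on the opposite strand, rose too (log2 fold change 0.52, SE 0.14, adjusted p = 0.0063). Whether reads of either gene entered the other's count was not tested. Xpo5, the hairpin exporter, was called higher as well, at 19.8, 24.8 and 21.2 CPM in uncrushed and 27.3, 26.2, 25.6 and 22.6 CPM in crushed SNs, which overlapped (log2 fold change 0.32, SE 0.11, adjusted p = 0.023). Its call was lost without crushed replicate 1 (adjusted p = 0.056), uncrushed replicate 1 (0.056) or uncrushed replicate 3 (0.057), and also with DESeq2 (0.059), with all groups in one fit (0.11) and with protein-coding transcripts only (0.27).

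The other members were not called against uncrushed SNs. Dicer1 came closest, at 42.7, 60.2 and 54.9 CPM before and 56.9, 67.8, 56.9 and 54.5 CPM after crush (log2 fold change 0.28, SE 0.12, adjusted p = 0.057), and without uncrushed replicate 2 it was called (log2 fold change 0.43, adjusted p = 0.011). Ago4 had 0.34 (SE 0.17, adjusted p = 0.087). The Dicer partners Tarbp2 and Prkra, with only 4.13 to 7.91 CPM, had 0.11 (SE 0.20) and -0.17 (SE 0.16). Drosha had -0.05 (SE 0.09), Ago1 -0.18 (SE 0.09) and Ago3 -0.14 (SE 0.09).

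The second comparison set the same 4 crushed SNs against the contralateral SNs. Here 2 of the 10 genes were called higher, against 33.5% of the 16667 genes tested, and 3 were called lower, against 32.9%. None reached 2-fold, which 28.3% of all genes did with a call. Dgcr8 again rose (log2 fold change 0.57, SE 0.09, adjusted p = 5.6e-05), and so did Ago2, whose contralateral SNs had 80.4, 80.3, 80.5 and 70.6 CPM (0.32, SE 0.08, adjusted p = 0.0020). Trmt2a was called lower here (-0.29, SE 0.10) and Chrac1 higher (0.29, SE 0.10).

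The 3 genes called lower against contralateral SNs were Ago1, Ago3 and Drosha. Ago1 fell from 46.7, 55.6, 47.1 and 46.8 CPM to 34.7, 39.5, 39.8 and 34.1 CPM (log2 fold change -0.39, SE 0.09, adjusted p = 0.0014). Ago3 fell from 75.6, 66.5, 73.0 and 70.9 CPM to 55.0, 56.8, 57.2 and 58.4 CPM (-0.31, SE 0.07, adjusted p = 0.0015). Drosha, the catalytic partner in the microprocessor, fell from 66.1, 62.4, 59.6 and 59.7 CPM to 51.6, 53.7, 56.5 and 45.9 CPM (-0.24, SE 0.08, adjusted p = 0.013), and this call was lost without crushed replicate 4 (adjusted p = 0.065). For all 3 the groups did not overlap. How common this is over all genes was not computed. In Dicer iKO, genes without a call, such as Dicer1, also had groups that did not overlap.

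These small falls were not called under every setting. With no count filter Drosha had -0.07, Ago1 -0.23 and Ago3 -0.14, and none of the 3 was called. On the log2(TPM + 0.1) scale, where the median of all genes moved to 0.17, Drosha stood at 0.07, Ago3 at 0.21 and Ago1 at -0.05, and none of the 3 was called by limma. On the log2(FPKM + 0.1) scale they stood at -0.10, 0.07 and -0.22, again not called. With protein-coding transcripts only, all 3 were called lower, against uncrushed SNs too (Drosha -0.26, Ago1 -0.44, Ago3 -0.34). With all groups in one fit, Ago1 and Ago3 were also called lower against uncrushed SNs. The median of all genes stood at -0.20 there. The rises of Dgcr8 and Ago2 were called under each of these settings in both comparisons.

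Prkra had -0.32 (SE 0.14, adjusted p = 0.052) against contralateral SNs and was called without crushed replicate 2 (-0.44, adjusted p = 0.014). Ago4 (0.21, SE 0.15), Tarbp2 (0.23, SE 0.15), Xpo5 (0.06, SE 0.10) and Dicer1 (0.05, SE 0.08) were not called.

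Contralateral and uncrushed SNs were compared to look for a remote effect of the injury. In edgeR's quasi-likelihood test 0 of the 10 genes were called, as were 0% of the 17722 genes tested in either direction. An unadjusted p under 0.05 was given to 0 of the 10 genes and to 3165 of all genes, and DESeq2 called 18 genes higher and 232 lower. The count over all genes was 57 higher and 599 lower with no count filter, 4 and 62 without uncrushed replicate 1 and 2 and 177 without uncrushed replicate 2. In each of these 0 of the 10 genes were called. The log2 fold changes of the 10 genes ran from -0.21 (Tarbp2, SE 0.21) to 0.17 (Xpo5, SE 0.11), and the groups overlapped for each gene.

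**Figure D2:**
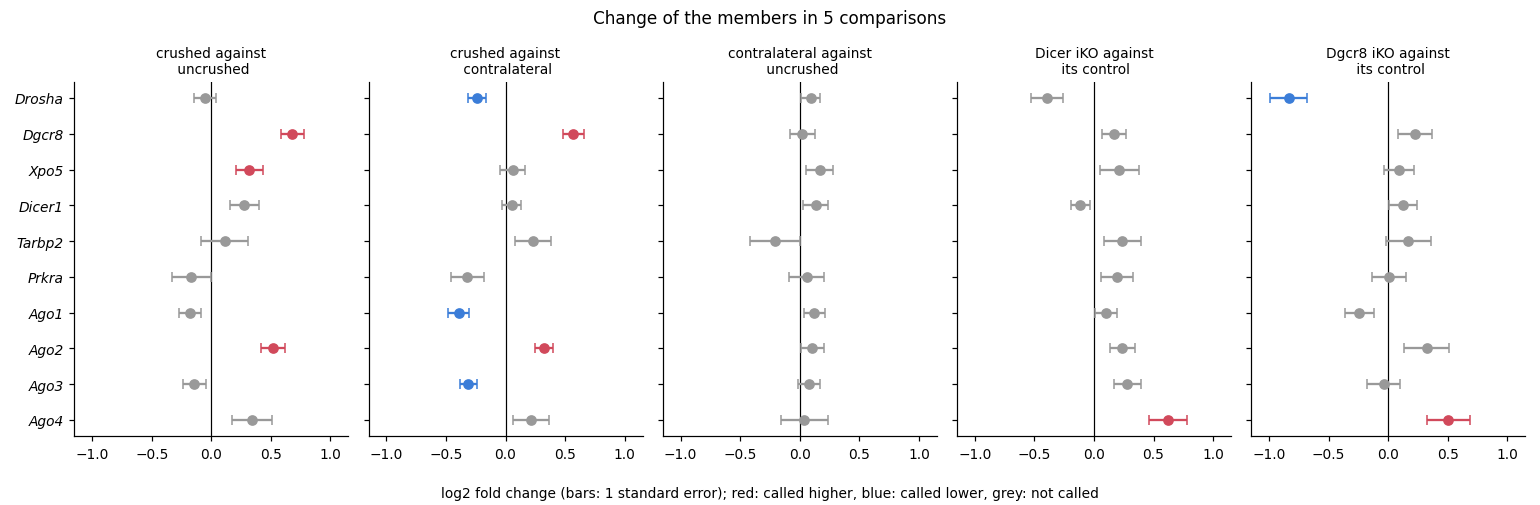
Log2 fold change (horizontal axis, dots) with 1 SE (bars) of the 10 genes (rows) in 5 comparisons (panels), from edgeR's quasi-likelihood fit. Red dots were called higher, blue dots called lower and grey dots not called. Dgcr8 (0.68 and 0.57) and Ago2 (0.52 and 0.32) are red in both crush comparisons, and Drosha stands lowest in Dgcr8 iKO (-0.83).

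In the mutants, the targeted genes were examined first. Dicer1 measured 88.0, 87.4 and 90.5 CPM in Dicer controls and 81.3, 82.1 and 81.9 CPM in Dicer iKO, a log2 fold change of -0.11 (SE 0.08, adjusted p = 0.36). The groups did not overlap, but the change was not called. Dgcr8 measured 38.4, 35.4 and 41.8 CPM in Dgcr8 controls and 39.4, 54.0 and 41.8 CPM in Dgcr8 iKO, a log2 fold change of 0.22 (SE 0.15, adjusted p = 0.23) with overlapping groups. Over coding transcripts the groups did not overlap (29.0 to 33.5 CPM in Dgcr8 controls, 34.6 to 46.6 CPM in Dgcr8 iKO). Dgcr8 was not called there either. Neither gene count checks the genotype, for the reason given with the exons above. By PCR, the study reports reduced Dicer mRNA in Dicer iKO, reduced Dgcr8 mRNA in Dgcr8 iKO, and reduced let-7f in both.

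**Figure D3:**
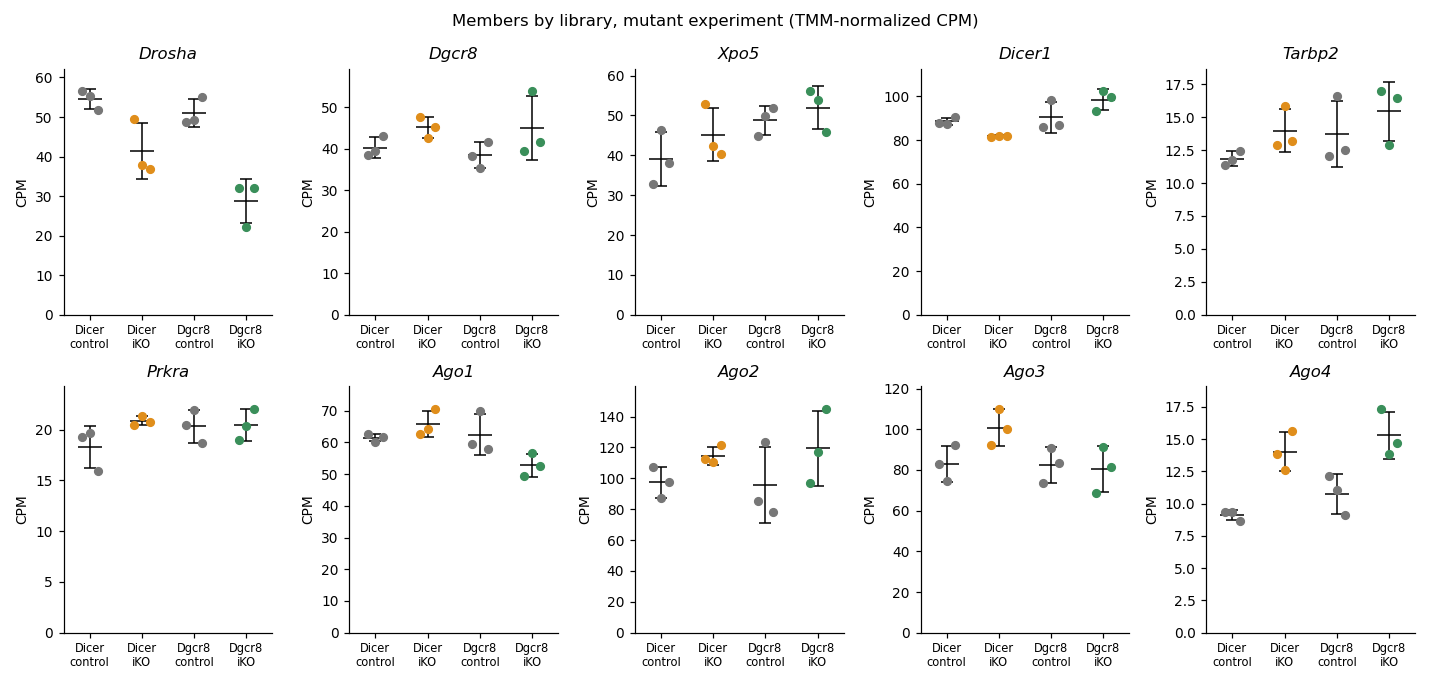
CPM normalized by TMM over the 12 mutant libraries (vertical axes, each starting at 0) of the 10 genes in Dicer control, Dicer iKO, Dgcr8 control and Dgcr8 iKO SNs (n = 3 each). Each dot is a library, the wide bar is the group mean and the whiskers are 1 SD. Drosha is lower in Dgcr8 iKO (22.2 to 32.1 CPM) than in all controls, and Ago4 is higher in both mutants than in their controls.

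Upon loss of Dicer, 1 of the 10 genes was called higher, against 12.3% of the 13045 genes tested, and 0 lower, against 8.88%. These shares rest on single libraries, since the 1605 genes higher and 1159 lower became 718 and 259 without Dicer control replicate 2, 702 and 177 without Dicer iKO replicate 2 and 668 and 173 without Dicer iKO replicate 3. None reached 2-fold, which 9.01% of all genes did with a call. The gene called was Ago4, at 9.34, 9.39 and 8.65 CPM in controls and 13.8, 12.6 and 15.6 CPM in Dicer iKO (log2 fold change 0.62, SE 0.16, adjusted p = 0.031, 1.54-fold). All 3 mutant SNs lay above all controls. The call was lost whichever of the 6 libraries was left out. The adjusted p was 0.052, 0.096 and 0.066 without Dicer control replicates 1, 2 and 3, and 0.051, 0.070 and 0.120 without Dicer iKO replicates 1, 2 and 3. The log2 fold change stayed between 0.55 and 0.71.

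Drosha was lower in all 3 Dicer iKO SNs (49.5, 38.0 and 36.8 CPM) than in the controls (56.6, 55.4 and 51.8 CPM), but was not called (log2 fold change -0.39, SE 0.13, adjusted p = 0.073). It was called without Dicer iKO replicate 1 (-0.53, adjusted p = 0.019) and with protein-coding transcripts only (-0.58, adjusted p = 0.015). Dgcr8 had 0.17 (SE 0.10). Ago2 had 0.24 (SE 0.11) and Ago3 0.28 (SE 0.12), neither of them called, with Ago2 at 107.2, 87.4 and 97.8 CPM in controls and 112.3, 110.4 and 121.4 CPM in Dicer iKO. The remaining genes were not called, with log2 fold changes of 0.21 (Xpo5, SE 0.16), 0.24 (Tarbp2, SE 0.16), 0.19 (Prkra, SE 0.13) and 0.10 (Ago1, SE 0.09).

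Upon loss of Dgcr8, 1 gene was called higher, against 23.9% of the 13252 genes tested, and 1 lower, against 20.6%. None reached 2-fold, which 20.4% of all genes did with a call. Drosha fell from 48.9, 49.3 and 55.0 CPM to 32.1, 22.2 and 32.0 CPM, a log2 fold change of -0.83 (SE 0.16, adjusted p = 0.0014, 1.78-fold). Each mutant SN was far below each control, and the call held under each alternative and without any 1 library. Ago4 rose from 12.2, 11.02 and 9.12 CPM to 17.3, 13.8 and 14.7 CPM (0.51, SE 0.18, adjusted p = 0.042), and this call was lost without Dgcr8 control replicate 2 (adjusted p = 0.076), control replicate 3 (0.15), Dgcr8 iKO replicate 1 (0.16) or iKO replicate 3 (0.056).

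Ago1 was lower in each Dgcr8 iKO SN (49.3, 56.7 and 52.5 CPM) than in each control (59.6, 69.9 and 57.9 CPM), without a call (-0.24, SE 0.12, adjusted p = 0.13). Ago2 spread widely, from 78.0 to 123.7 CPM in controls and from 96.7 to 145.0 CPM in mutants (0.32, SE 0.19, adjusted p = 0.19), and without Dgcr8 control replicate 2 it was called higher (0.54, adjusted p = 0.035). Dicer1 (0.12, SE 0.11), Xpo5 (0.09, SE 0.13), Tarbp2 (0.17, SE 0.19), Prkra (0.01, SE 0.14) and Ago3 (-0.04, SE 0.14) were not called.

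Whether the loss of Dgcr8 and the loss of Dicer differ in effect was tested as an interaction over the 12 libraries. The test called 0 of the 10 genes, against 0.00738% of the 13552 genes tested in each direction. DESeq2 called 170 genes higher and 65 lower, and edgeR 320 and 81 without Dicer control replicate 3, again with 0 of the 10 among them. An unadjusted p under 0.05 was given to 1861 of all genes and to 1 of the 10, Ago1 (-0.34, SE 0.14, adjusted p = 0.34). For Drosha, the effect of Dgcr8 loss minus that of Dicer loss was -0.44 (SE 0.22, adjusted p = 0.40), so the fall of Drosha is not shown to differ between the mutants.

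The ratio of 2 genes within a library does not depend on how libraries are scaled, and it was computed after the values above were known. It is given as a description, and since transcript lengths differ its size is not a ratio of molecules. For the counts of Dgcr8 to Drosha, uncrushed SNs had 0.426, 0.435 and 0.505 and contralateral SNs 0.392, 0.377, 0.512 and 0.449. All 4 crushed SNs were higher, at 0.767, 0.759, 0.742 and 0.738. In the mutant experiment, Dicer controls had 0.680, 0.711 and 0.833 and Dicer iKO 0.962, 1.12 and 1.23. Dgcr8 controls had 0.785, 0.718 and 0.759 and Dgcr8 iKO 1.23, 2.43 and 1.31, so the ratio was higher in each mutant SN than in its controls. With protein-coding transcripts only, the groups also did not overlap in these 4 comparisons, with 0.0894 to 0.206 in control SNs against 0.255 to 0.407 at 3 dpc, 0.656 to 0.708 against 1.11 to 1.204 for Dicer, and 0.691 to 1.14 against 1.40 to 2.49 for Dgcr8. Over all transcripts, Dgcr8 was called higher at 3 dpc in both crush comparisons, and Drosha was called lower against contralateral SNs. In Dgcr8 iKO only Drosha of the pair was called, and in Dicer iKO neither gene was.

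**Figure D4:**
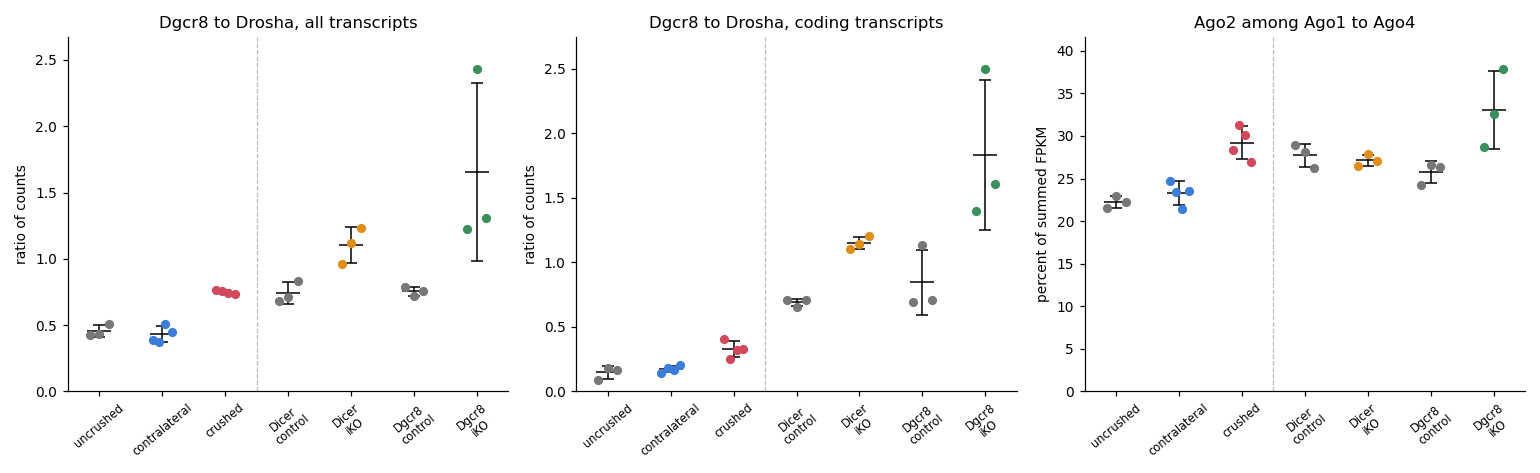
Ratio of Dgcr8 to Drosha counts over all transcripts (left) and over protein-coding transcripts (middle), and the share of Ago2 in the summed FPKM of the 4 Argonaute genes in percent (right), by group. Dots are libraries, wide bars means and whiskers 1 SD, and a dashed line separates the 2 experiments. The ratio is higher at 3 dpc and in both mutants than in their controls, and the share of Ago2 is higher at 3 dpc and in Dgcr8 iKO.

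Among the 4 Argonaute genes, the share of each in their summed FPKM was taken per library. FPKM was added over all listed transcripts, short ones such as Ago3-203 (433 bases) included. It can therefore differ from counts. Ago3 had 5.98 ± 2.18 FPKM in uncrushed and 7.745 ± 1.54 FPKM in crushed SNs, but 67.7 ± 6.59 and 56.9 ± 1.42 CPM. The shares are not shares of molecules. The share of Ago2 was 21.5, 22.9 and 22.2% in uncrushed SNs, 24.8, 23.4, 21.5 and 23.6% in contralateral SNs, and 28.4, 31.3, 30.2 and 27.0% at 3 dpc, with crushed above all controls. The share of Ago1 was 45.8 ± 7.15% in uncrushed, 40.9 ± 3.68% in contralateral and 32.9 ± 1.95% in crushed SNs (SD, a description with no test). In Dgcr8 iKO, Ago2 held 28.7, 32.6 and 37.8% against 24.3, 26.6 and 26.4% in its controls, and Ago1 held 36.0 ± 0.744% against 42.9 ± 0.683%. In Dicer iKO the share of Ago2 (27.1 ± 0.680%) overlapped that of its controls (27.7 ± 1.36%). Ago4 held 5.37 ± 1.42 to 9.10 ± 1.59% in all groups.

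The transcripts behind the gene counts differed between the 2 experiments. In the crush libraries, Dgcr8 counts were spread over 7 listed transcripts, and Dgcr8-201, its only coding one, held 31.5 ± 10.2% (uncrushed), 39.7 ± 7.17% (contralateral) and 41.6 ± 7.07% (crushed). The retained-intron transcript Dgcr8-203 held 38.7 ± 5.26% in uncrushed, 34.3 ± 4.11% in contralateral and 27.2 ± 2.44% in crushed SNs. In the mutant libraries only 4 Dgcr8 transcripts were listed and Dgcr8-201 held 79.3 to 86.7% on average. The CPM of Dgcr8-201 alone was 4.95 to 12.002 in control SNs and 13.3 to 19.7 at 3 dpc, without overlap.

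Drosha counts of the mutant libraries were divided less evenly. Its coding transcripts held 51.8% in Dgcr8 control replicate 2, against 86.0 and 85.6% in the other 2 Dgcr8 controls, while the transcript ENSMUST00000129031, absent from GENCODE M21, took 41.3% there. With coding transcripts only, Drosha measured 42.0, 25.6 and 47.1 CPM in Dgcr8 controls and 24.7, 18.7 and 22.3 CPM in Dgcr8 iKO, still without overlap. The split of counts among transcripts is an estimate of the authors' quantification and was not tested. Dicer1, Xpo5 and Ago2 had a single listed transcript in all libraries.

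**Figure D5:**
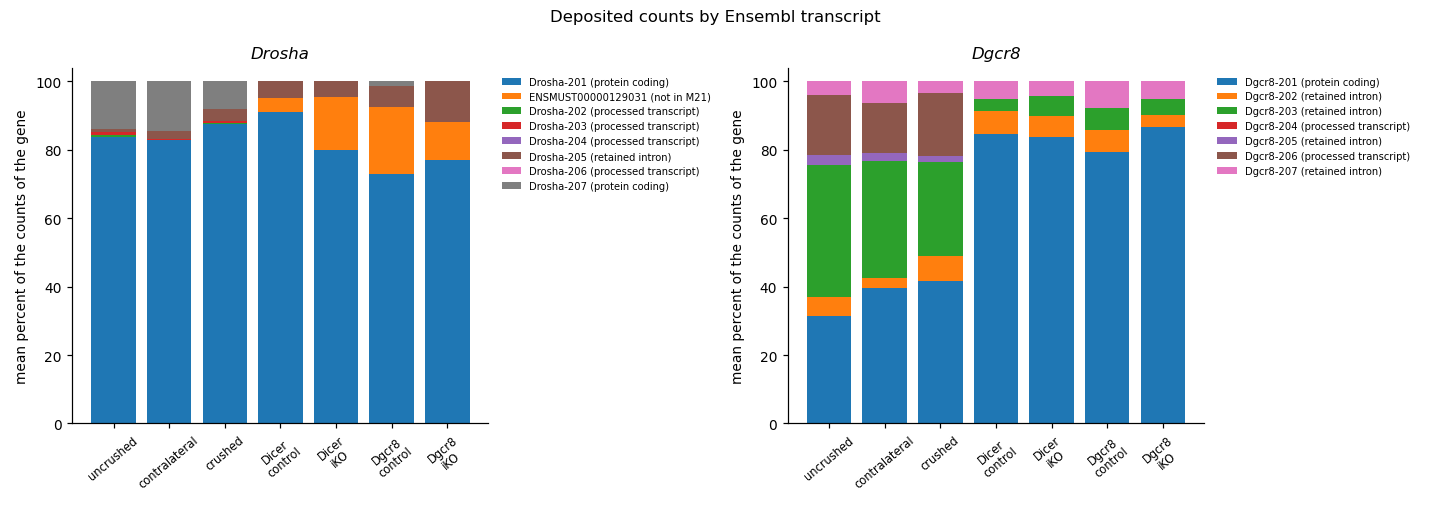
Mean share of each gene's deposited counts (vertical axis, percent, from 0) given to each Ensembl transcript of Drosha (left) and Dgcr8 (right) in the 7 groups, with the transcript type in the key. Dgcr8-201 holds 31.5 to 41.6% in the crush libraries and 79.3 to 86.7% in the mutant libraries.

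Since let-7 is an abundant miRNA family in nerve, the 3′ untranslated regions (UTRs) of the 10 genes were searched for CTACCTC, the match to bases 2 to 8 of let-7f-5p, on the transcript strand only. The let-7f-5p sequence and the 5 sites found are shown with seed and match in capitals. Each site stands with 8 bases before and 7 after the match.
mmu-let-7f-5p: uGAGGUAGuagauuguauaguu
Tarbp2 (chr15:102523444-102523450): tgccatctCTACCTCtgacaca
Ago2 (chr15:73101725-73101731): cataaaagCTACCTCtgacttc
Ago2 (chr15:73100041-73100047): cctctgtcCTACCTCcaggcac
Ago2 (chr15:73097983-73097989): atgtggatCTACCTCagttaaa
Ago3 (chr4:126335041-126335047): gccctcacCTACCTCaccaagt

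The 3 genes with a match, Tarbp2, Ago2 and Ago3, have UTRs of 334, 11064 and 12742 bases. Of all annotated UTRs within 10% of each length, 2.5, 48.4 and 50% hold a match, out of 896, 31 and 16 UTRs, and the share over all 21901 coding genes is 7.5%. The log2 fold changes of the 3 genes were 0.24, 0.24 and 0.28 in Dicer iKO and 0.17, 0.32 and -0.04 in Dgcr8 iKO, none of them called. Drosha, Dgcr8, Xpo5, Dicer1, Prkra, Ago1 and Ago4 held 0 matches in these UTRs. No other seed was searched, and whether the matches relate to the changes was not tested.

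Further genes of the pathway were examined in 4 lists. At 3 dpc, the shares of all genes called higher and lower were 33.8% and 33.4% against uncrushed and 33.5% and 32.9% against contralateral SNs, with medians of -0.03 and -0.06. Of 10 microprocessor cofactors, 7 were called higher and 3 lower in each crush comparison (median log2 fold change 0.74 and 0.48). Of 6 chaperone genes that help to load Argonaute, 5 were higher and 0 lower in each (0.73 and 0.57), led by Hsp90aa1, a heat shock protein 90 gene (361 ± 10.9 CPM in uncrushed and 1231 ± 80.9 CPM in crushed SNs, log2 fold change 1.87, SE 0.11). Of 12 genes for precursor export, tailing and decay, 11 were tested, and 7 were higher and 2 lower against uncrushed and 5 and 2 against contralateral SNs. Ran, whose GTP-bound protein works with exportin-5, rose from 44.2 ± 2.59 to 175 ± 12.4 CPM (log2 fold change 2.08, SE 0.10). Of 29 silencing effectors, 12 were higher and 6 lower against uncrushed and 11 and 9 against contralateral SNs. Pabpc1, a poly(A)-binding protein gene, rose most in this list (1.82, SE 0.10) and Ajuba, which encodes a LIM-domain protein, fell most (-2.16, SE 0.17, and -2.47, SE 0.16). Lin28b, whose protein blocks let-7 maturation, had 1.71 to 4.10 CPM in uncrushed and 0.722 to 1.41 CPM in crushed SNs (-1.38, SE 0.36). Contralateral SNs reached at most 2.46 CPM, and the difference was called against them too (-0.89, SE 0.29). Trim71, itself a known let-7 target, had 3.64 ± 1.46 and 1.37 ± 0.262 CPM (-1.24, SE 0.33), but contralateral SNs had 1.60 ± 0.294 CPM, which overlapped the crushed SNs (-0.20, SE 0.27, adjusted p = 0.52 by edgeR). None of the 4 lists had a gene called between contralateral and uncrushed SNs.

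In the mutants fewer of these genes were called, as were fewer of all genes. Upon loss of Dicer (12.3% of all genes higher, 8.88% lower), the cofactors and chaperones had 0 called genes, the export and decay list 2 lower (the translin complex genes Tsn, -0.43, SE 0.10, and Tsnax, -0.51, SE 0.10), and the effectors 1 higher and 2 lower. Upon loss of Dgcr8 (23.9% and 20.6%), the cofactors had 2 higher and 1 lower, the chaperones 0, the export and decay list 2 and 2, and the effectors 6 and 5. Mov10, which encodes an Argonaute-associated helicase, was the only gene of the 4 lists to rise 2-fold with a call, from 5.02 ± 0.770 to 11.9 ± 1.68 CPM (1.23, SE 0.21, adjusted p = 0.00084) in Dgcr8 iKO. Its change in Dicer iKO was close to this, from 5.42 ± 0.748 to 10.8 ± 1.58 CPM without overlap (0.99, SE 0.21). Lin28b fell from 1.68 ± 0.344 to 0.149 ± 0.0740 CPM in Dgcr8 iKO (adjusted p = 0.00080), where its level was under the limit that 3 counts set. The interaction called 0 genes of the 4 lists.

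Finally, the genes whose pattern over the 23 libraries was most like that of 4 members were sought among 12405 genes, by the root mean square difference of log2 CPM after centring each gene within each experiment. Nearest to Drosha were Eef1d (0.141, r = 0.884) and Cep250 (0.159, r = 0.856), and nearest to Dgcr8 were Edem3 (0.108, r = 0.886) and Usp7 (0.110, r = 0.880). Nearest to Dicer1 were Fam208b (0.0882, r = 0.746) and Tmed10 (0.0897, r = 0.759), and nearest to Ago2 were Mef2d (0.117, r = 0.857) and Dlg5 (0.121, r = 0.850). The points share libraries and groups, so these values describe likeness and were not tested.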

How the data were processed

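Whole sciatic nerves were sequenced after rRNA depletion with strand-keeping kits, for which the labels give SMARTer pico (crush) and TruSeq with Ribo-Zero (mutants) and the study's methods only TruSeq. The authors trimmed with Trimmomatic, aligned with STAR and ran RSEM on Ensembl annotation of GRCm38, whose release is not given in the sources used here. Each deposited file lists expected counts (estimated counts per transcript, not normalized), TPM and FPKM, the last 2 scaled by the authors for transcript length and library size. The title and the description of an uncrushed library disagree on its replicate number (3 or 4), and the title was followed.

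Per gene, the expected counts of all its transcripts were added up and then rounded. Symbols came from GENCODE M21 for 42365 of 43068 and 22570 of 22880 genes. Each comparison used the libraries of its own groups, edgeR 4.0.16's filterByExpr (minimum count 10), TMM normalization and quasi-likelihood test in R 4.3.3, with Benjamini-Hochberg adjustment over all genes tested. A gene was called at an adjusted p of at most 0.05, and calls with at least 2-fold change, the limit the study uses, are counted beside. SE was taken as the size of the log2 fold change over the root of the F statistic. CPM values are TMM-normalized over each experiment, and errors are SD. All 10 genes passed the count filter in each comparison.

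Alternatives were RLE size factors, no count filter, DESeq2 1.42.0, the replicate number as a block, all groups in one fit, protein-coding transcripts only, limma 3.58.1 on log2(TPM + 0.1), leaving out each replicate, and, added after seeing the data, limma on log2(FPKM + 0.1). The fits were also run on simulated data in which only a small part of the genes changed. The crush comparisons differ from this, so nothing about them is concluded from the simulation. The genes, lists and tests were chosen with earlier results of these data known. Named genes are the 10 members, up to 3 genes of the other lists per direction and comparison with a call and at least 2-fold change, and the 2 genes most like each of 4 members (log2 of CPM + 0.5, mean of at least 1). Tsn and Tsnax were named after their values were seen, and Chrac1 and Trmt2a as opposite-strand neighbours of members. No pair of replicates was a copy of another (chi-square per degree of freedom 4.36 to 42.4 over 27 pairs). The methods list 1 mouse per library within a group. Which crushed and contralateral SNs share a mouse is not given. A pair of SC markers is not reported here and was left out of the summed marker levels.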

Additional observations from a re-analysis of the deposited data

Results flagged for a closer look

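Among 20 groups of 4 libraries (10 genes in crushed and contralateral SNs), 2 held a library far from the rest by Dixon's criterion, where chance gives about 1 in 20. Ago1 in contralateral SNs had a library at 55.6 CPM against 46.7 to 47.1 CPM in the other 3, and without it (contralateral replicate 2) the fall of Ago1 at 3 dpc was still called. Ago2 in contralateral SNs had a library at 70.6 CPM against 80.3 to 80.5 CPM in the other 3, and without it (contralateral replicate 4) its rise at 3 dpc was still called.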

How the results depend on the processing

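The rises of Dgcr8 and Ago2 at 3 dpc and the fall of Drosha in Dgcr8 iKO kept their direction and their call under each alternative and without any 1 library. Counts of called members moved as follows. Against uncrushed SNs (3 in the report), they were 5 with no count filter, 5 with protein-coding transcripts only, 6 with log2(TPM + 0.1) and 2 to 4 without 1 replicate. Calls were common over all genes too. With no count filter 7160 were higher and 5710 lower of 36681 tested. With protein-coding transcripts only these were 4722 and 4553 of 14036, and with log2(TPM + 0.1) 8246 and 1085 of 17433. Without 1 replicate, 5418 to 5983 were higher and 5199 to 5815 lower. Against contralateral SNs (5), they were 2 with no count filter, 2 with log2(TPM + 0.1), 2 with log2(FPKM + 0.1) and 4 to 6 without 1 replicate. Over all genes, 6645 were higher and 4469 lower of 36853 tested with no count filter. Of 16667 tested, 5807 and 2674 were called with log2(TPM + 0.1), and 5818 and 4254 with log2(FPKM + 0.1). Leaving out 1 replicate gave 5088 to 5708 higher and 5099 to 5728 lower. In Dicer iKO (1), they were 2 with protein-coding transcripts only, 0 with either limma fit and 0 to 1 without 1 replicate. Over all genes, 1466 were higher and 1013 lower of 12809 with protein-coding transcripts only. Of 13045 tested, 1514 and 584 were called with log2(TPM + 0.1), and 1577 and 629 with log2(FPKM + 0.1). Leaving out 1 replicate gave 668 to 1735 higher and 173 to 1330 lower. In Dgcr8 iKO (2) they were 1 with no count filter, with DESeq2, with protein-coding transcripts only and with either limma fit, and 1 to 2 without 1 replicate. Over all genes, these were 3351 higher and 2872 lower of 18321 with no count filter, and 3036 and 2658 of 13252 with DESeq2. They were 2988 and 2553 of 13038 with protein-coding transcripts only, and 3442 and 1611 of 13252 with log2(TPM + 0.1). With log2(FPKM + 0.1) they were 3337 and 1914 of 13252, and without 1 replicate 2650 to 3085 and 2105 to 2649. With a limit of 2-fold, the count was 0 in each comparison.

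With the replicate block, 0 members were called in Dicer iKO, where Ago4 had an adjusted p of 0.10, and 687 genes rose and 242 fell against 1605 and 1159 without it. The replicate block added Dicer1 (0.30) against uncrushed and Prkra (-0.32) against contralateral SNs. After each group's mean was removed, same-numbered libraries correlated at -0.20 to 0.23, so the numbers were not taken as pairs.

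The median over all genes tested moved by more than 0.1 under some settings, of which the fits with no count filter and with all groups also cover other genes (36681 and 18394 against 17433 in the comparison with uncrushed SNs). Against uncrushed SNs it was 0.63 with log2(TPM + 0.1), 0.089 with log2(FPKM + 0.1), -0.39 with no count filter and -0.20 with all groups in one fit, against -0.03 in the report. Against contralateral SNs it was 0.17 with log2(TPM + 0.1), in place of -0.06. Between contralateral and uncrushed SNs (-0.02) it was 0.50 with log2(TPM + 0.1), 0.088 with log2(FPKM + 0.1) and -0.16 with no count filter, and in Dgcr8 iKO (-0.01) 0.13 and 0.091 with the 2 limma fits. Of the called genes, 88.4% were higher with log2(TPM + 0.1) against uncrushed SNs (50.3% in the report), 68.5% against contralateral SNs (50.5%), 72.2% in Dicer iKO (58.1%) and 68.1% in Dgcr8 iKO (53.7%).

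Signs turned for these log2 fold changes. With no count filter, against uncrushed SNs, Drosha had 0.17, Prkra 0.057, Ago1 0.053 and Ago3 0.087. With log2(TPM + 0.1), Drosha had 0.70, Prkra 0.49, Ago1 0.45 and Ago3 1.0 (called) against uncrushed SNs, Drosha 0.070 and Ago3 0.21 against contralateral SNs, and Tarbp2 0.093 between contralateral and uncrushed SNs and 0.11 in the interaction. With log2(FPKM + 0.1), Drosha had 0.036, Tarbp2 -0.30 and Ago3 0.42 against uncrushed SNs, Ago3 0.070 against contralateral SNs and Tarbp2 0.053 in the interaction. With protein-coding transcripts only, Xpo5 had -0.026 and Dicer1 -0.038 against contralateral SNs, and Ago4 -0.021 between contralateral and uncrushed SNs. Without 1 replicate, values of uncalled genes crossed 0: against uncrushed SNs Drosha ran from -0.10 to 0.024 and Tarbp2 from -0.0081 to 0.37, and against contralateral SNs Xpo5 from -0.0092 to 0.16 and Dicer1 from -0.049 to 0.086. Between contralateral and uncrushed SNs Dgcr8 ran from -0.052 to 0.082, Tarbp2 from -0.35 to 0.023 and Ago4 from -0.099 to 0.15, and in Dgcr8 iKO Prkra from -0.057 to 0.058 and Ago3 from -0.13 to 0.066. In the interaction Dgcr8 ran from -0.081 to 0.15, Xpo5 from -0.26 to 0.013, Tarbp2 from -0.15 to 0.091 and Ago2 from -0.072 to 0.31. The cause was not tested. In place of TPM, FPKM kept 66 of the 70 ranks of the 10 genes in the 7 groups. Depth limits Tarbp2, Prkra and Ago4 most in the crush libraries.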
